A study of Mus musculus with 12 samples.

Results

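The 10 genes described here are acute-phase genes of reactive astrocytes, namely Lcn2, Serpina3n, Cp, Hp, Saa3, Steap4, S1pr3, Ch25h, Mt1 and Mt2. They were chosen by name from the 55401 genes of the FPKM tables, and the choice was made from their values in NAD+ against Ctrl under differentiation conditions. Their values in that comparison are therefore given as a description without a test. All 10 were found, in all 12 samples.

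The acute phase is the change of secreted proteins that the liver makes during infection or injury, set off mainly by interleukin-6 and interleukin-1 and carried out in the nucleus by STAT3, C/EBP factors and NF-κB. Astrocytes that react to injury or inflammation in the brain express many of the same genes, and Lcn2, Steap4, S1pr3, Cp and Serpina3n are among the genes commonly used to recognize reactive astrocytes of any kind. Their products bind iron-loaded siderophores, reduce iron and copper, oxidize iron, inhibit proteases, sense sphingosine-1-phosphate and bind metals.

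Adult neural stem/progenitor cells (aNSPCs) from the forebrain of C57BL/6 mice aged 8 to 10 weeks were grown as dividing neurospheres or placed under differentiation conditions, in which 1 µM retinoic acid and 5 µM forskolin, an activator of adenylyl cyclase, were present. In each condition the cells were cultured without NAD+ (Ctrl) or with 1 mM NAD+ in the medium, and 3 samples were sequenced for each of the 4 groups. The titles name NAD+ for 6 samples, while a treatment field of the labels calls all 12 untreated, and the groups used here follow the titles. The study calls the samples of a group biological repeats. Whether they came from separate mice or cultures is not given in the sources used here, so the p-values measure the spread between these samples. All values are FPKM values (fragments counted for a gene, divided by its length and by the size of the library), which can be compared between genes, and the depth behind them is unknown.

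Marker genes were read against the labels. The stem cell marker Nes had 68.8 ± 18.3 (SD, n = 3) FPKM in proliferating Ctrl and 9.92 ± 0.910 (SD, n = 3) in differentiation Ctrl, whereas the astrocyte filament gene Gfap had 19.1 ± 1.39 (SD, n = 3) and 595 ± 48.1 (SD, n = 3). The summed FPKM of 8 astrocyte markers lay between 911 and 1196 in the 6 proliferating samples and between 1644 and 2108 in the 6 differentiation samples. Gfap held a large part of that difference, with 11.27 to 20.5 FPKM in the proliferating samples and 545.96 to 998.61 in the differentiation samples. Aqp4, Slc1a2, Slc1a3 and Gja1 were also higher in every differentiation sample than in every proliferating sample. Aldoc and S100b were lower in every differentiation sample, and Aldh1l1 overlapped. Markers of neurons summed to between 21.2 and 34.5, those of oligodendrocyte lineage cells to between 143 and 362 and those of ependymal and choroid plexus cells to between 8.70 and 30.7. The 8 microglia markers summed to at most 0.49 FPKM in any sample, the 4 endothelial markers to at most 0.76 and the 5 fibroblast and mural markers to at most 0.79. In bulk RNA a larger share of expressing cells and more RNA per cell cannot be told apart.

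A pair of libraries stood apart. In proliferating Ctrl replicate 1 and differentiation Ctrl replicate 2, the 3 liver markers (Alb, Apoa1 and Ttr) summed to 4.40 and 8.18 FPKM, against 0 to 0.15 in the other 10 samples. A further 26 genes reached an FPKM of 0.1 in both of these libraries and were listed at 0 in the other 10, more than for any other pair of samples, where the number was at most 12. They included the liver gene Fabp1 (1.09 and 3.53 FPKM) and the neutrophil gene S100a9 (1.81 and 1.18), both named after their values were seen. Where the values of a member rest on these libraries, that is said beside them.

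The members lie on 8 chromosomes of mm10, and only the metallothioneins are neighbours. Mt2 (chromosome 8, 94172664 to 94173568) ends 5513 bases before Mt1 (94179082 to 94180327), with Mt3 18517 bases on the other side of Mt2. Hp is farther along the same chromosome (109575128 to 109579172). Lcn2 lies on chromosome 2 (32384633 to 32388252), Cp on chromosome 3 (19957054 to 20009145), Steap4 on chromosome 5 (7960457 to 7982213) and Saa3 on chromosome 7 (46711998 to 46715700). Serpina3n lies on chromosome 12 (104406729 to 104414329) at the end of a cluster of 11 Serpina3 genes that starts at 104112724. S1pr3 lies on chromosome 13 (51408639 to 51422797) and Ch25h on chromosome 19 (34473778 to 34475164). All 10 are annotated as protein-coding.

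Upstream sequence was found in RefSeq (GRCm38.p6) for 9 of the 10 members. The 250 bases before each start were searched on both strands for 4 kinds of motif, namely TTGCNNAA (C/EBP), TTCNNNGAA (STAT), the κB motif and TGCACNC or TGCGCNC (the core of the metal response element, MRE, bound by MTF1). Members were counted over any of their windows (10 windows for the 9 members), while the shares of all windows are per window. A C/EBP motif was present for 6 members (Lcn2, Cp in 1 of its 2 windows, Saa3, Steap4, Ch25h and Mt2) and in 9.56% of all 32851 windows. A STAT motif and κB motifs were present only for Steap4, against 7.02% and 7.25% of all windows. MRE cores were present for Mt1, Mt2 and S1pr3, against 21.4% of all windows. The windows of Steap4, Mt1 and Mt2 are shown because that of Steap4 holds the most matches of the acute-phase motifs and those of the neighbours Mt1 and Mt2 both hold MRE cores, all on the plus strand, 5′ to 3′, with matches in capitals. In Steap4 (chr5:7960222-7960471) the capitals mark, in order, 2 κB motifs at 250 and 226 bases before the start, the STAT motif at 116 and the C/EBP motif at 87. In Mt1 (chr8:94178839-94179088) they mark 1 MRE core at 23 bases, and in Mt2 (chr8:94172368-94172617) MRE cores at 223, 128 and 50 bases and a C/EBP motif at 12.
Steap4: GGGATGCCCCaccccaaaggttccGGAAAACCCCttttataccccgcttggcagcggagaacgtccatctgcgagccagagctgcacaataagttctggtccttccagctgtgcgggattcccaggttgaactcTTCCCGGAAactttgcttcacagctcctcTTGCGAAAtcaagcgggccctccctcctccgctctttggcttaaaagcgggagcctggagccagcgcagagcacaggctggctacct
Mt1: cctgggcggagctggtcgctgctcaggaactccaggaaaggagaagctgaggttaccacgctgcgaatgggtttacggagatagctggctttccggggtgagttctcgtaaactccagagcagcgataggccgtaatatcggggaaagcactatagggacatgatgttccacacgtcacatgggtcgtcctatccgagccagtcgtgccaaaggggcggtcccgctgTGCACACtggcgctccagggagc
Mt2: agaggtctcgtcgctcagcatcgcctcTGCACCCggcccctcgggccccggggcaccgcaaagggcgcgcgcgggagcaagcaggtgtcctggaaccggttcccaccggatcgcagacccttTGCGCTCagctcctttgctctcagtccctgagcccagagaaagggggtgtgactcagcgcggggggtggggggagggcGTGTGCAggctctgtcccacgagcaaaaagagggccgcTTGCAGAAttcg
The C/EBP motif of Lcn2, TTGCTCAA, lies 216 bases before the RefSeq start. A match of letters is a description of the window and says nothing on binding. Bases past the annotated start or farther upstream were not searched, so the numbers of motifs, that of Mt1 included, hold for these windows only.

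The first question was how the secreted acute-phase proteins stood in each culture. Lcn2 encodes lipocalin 2, a secreted protein that binds iron-loaded bacterial siderophores. Its FPKM values were 27.59, 21.65 and 25.66 in the differentiation Ctrl samples and 176.36, 172.91 and 178.35 in the NAD+ samples. Under proliferating conditions they were 0.08, 0 and 0.05 in Ctrl and 0, 0.03 and 0.04 with NAD+. The 3 groups of levels did not meet, since all proliferating samples were at or near 0, differentiation Ctrl stood above them and every differentiation NAD+ sample stood above every other sample. The mean with NAD+ was 7.04 times that of Ctrl under differentiation conditions, a log2 fold change of 2.82 (SE 0.09, on log2(FPKM + 0.1), a scale that understates changes of low values). In differentiation Ctrl replicate 2, the library with liver transcripts, Lcn2 had the lowest value of its group, and without that library the log2 fold change was 2.72.

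Serpina3n encodes a secreted serine protease inhibitor, the mouse counterpart of α1-antichymotrypsin. It had 169.7, 146.89 and 173.54 FPKM in differentiation Ctrl and 208.63, 188.75 and 207.14 with NAD+, so the groups were close but did not overlap. The mean was 1.23 times higher with NAD+, a log2 fold change of 0.30 (SE 0.08). The ratio of Lcn2 to Serpina3n within a sample was between 0.147 and 0.163 in differentiation Ctrl and between 0.845 and 0.916 with NAD+. Under proliferating conditions Serpina3n had 24.33, 18.58 and 17.16 FPKM in Ctrl and 28.24, 17.12 and 17.48 with NAD+, and replicate 1 was the highest of both groups.

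Of the 10 paralogs of Serpina3n, 7 were under the filter in both conditions, and only Serpina3h, annotated as a pseudogene, and Serpina3i reached 0.5 FPKM in all 3 differentiation Ctrl samples (0.67 to 1.94 and 0.52 to 0.95). Serpina3k had 0.62 and 1.15 FPKM in the libraries with liver transcripts and was listed at 0 in the other 10. The genes of this cluster are closely related copies, so reads may be shared or lost between them and their values, that of Serpina3n included, are uncertain to that extent.

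Cp encodes ceruloplasmin, the copper-carrying ferroxidase that oxidizes iron for transport. It had 13.77, 11.18 and 14.47 FPKM in differentiation Ctrl and 31.65, 28.82 and 34.33 with NAD+, without overlap. The mean was 2.40 times higher with NAD+ (log2 fold change 1.26, SE 0.11). In proliferating cells it had 3.79, 5.34 and 5.31 FPKM in Ctrl and 4.75, 4.6 and 4.57 with NAD+, where the groups overlapped.

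Hp encodes haptoglobin, which binds free hemoglobin, and Saa3 a serum amyloid A. Neither was expressed above traces outside the libraries with liver transcripts. Hp had 1.21 FPKM in proliferating Ctrl replicate 1, 0.99 in differentiation Ctrl replicate 2, 0.03 in differentiation NAD+ replicate 2 and 0 in the other 9 samples. Saa3 had 0.39 and 0.59 FPKM in the same 2 libraries, 0.05 in differentiation NAD+ replicate 1 and 0 in the other 9. The log2 fold changes of NAD+ against Ctrl under differentiation conditions, -1.02 (SE 0.96) for Hp and -0.73 (SE 0.81) for Saa3, rest on that 1 Ctrl library. Without it both genes fell under the filter (a mean FPKM of 0.1 across the condition).

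**Figure D1:**
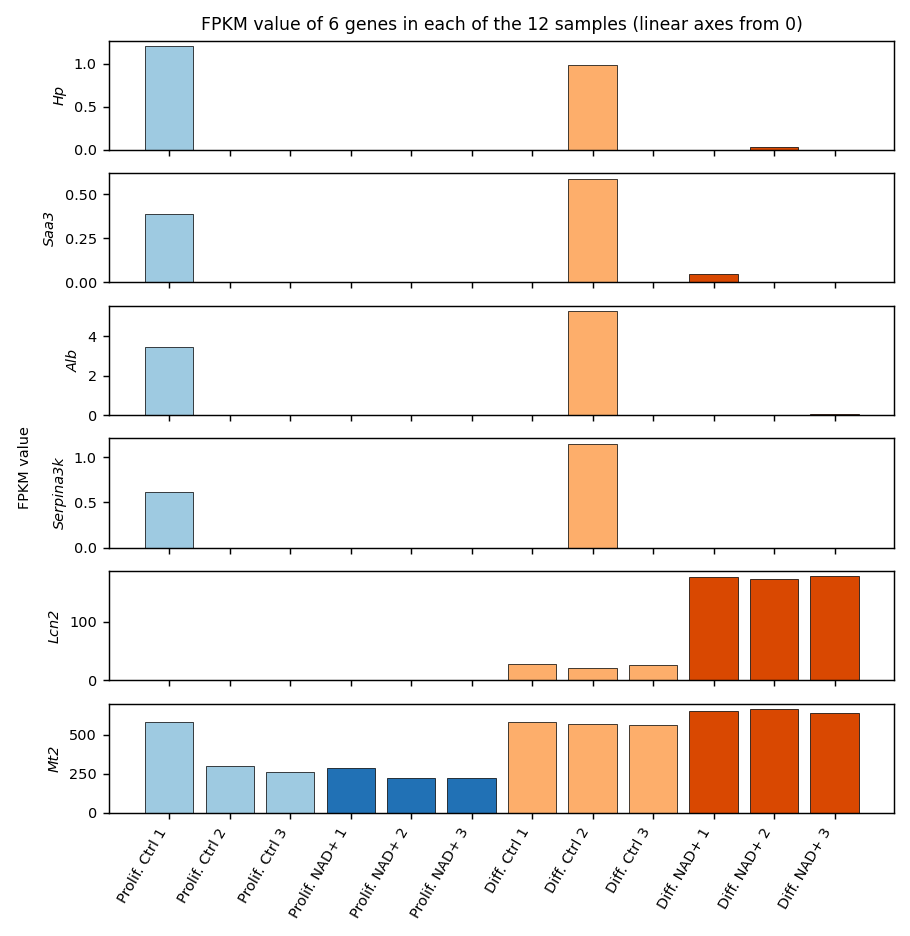
FPKM values (linear axes from 0) of Hp, Saa3, the liver gene Alb, Serpina3k, Lcn2 and Mt2, with 1 bar for each of the 12 samples, coloured by group. Hp, Saa3, Alb and Serpina3k stand above 0.3 FPKM in proliferating Ctrl replicate 1 and differentiation Ctrl replicate 2 alone, Lcn2 is high in all differentiation NAD+ samples, and Mt2 is higher in proliferating Ctrl replicate 1 than in the other 5 proliferating samples.

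Among the members that are not secreted, Steap4 encodes a metalloreductase that reduces iron and copper, and its FPKM values were 6.66, 5.25 and 7.56 in differentiation Ctrl and 33.83, 30.81 and 37.63 with NAD+. The groups did not overlap, and the mean was 5.25 times higher with NAD+ (log2 fold change 2.39, SE 0.14). In proliferating cells Steap4 had 0.15, 0 and 0.07 FPKM in Ctrl and 0.07, 0.34 and 0.09 with NAD+, all close to the floor of the table.

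S1pr3 encodes a receptor for sphingosine-1-phosphate. It had 8.82, 7.81 and 10.16 FPKM in differentiation Ctrl and 28.4, 27.1 and 30.33 with NAD+, again without overlap. The mean was 3.20 times higher with NAD+ (log2 fold change 1.68, SE 0.10). Under proliferating conditions it had 1.05, 0.33 and 0.25 FPKM in Ctrl and 1.29, 0.43 and 0.4 with NAD+, with replicate 1 of both groups above the other 4 samples.

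Ch25h encodes cholesterol 25-hydroxylase, the enzyme that makes 25-hydroxycholesterol. It was at the edge of detection, with 0.04, 0.03 and 0.13 FPKM in differentiation Ctrl and 0.13, 0.29 and 0.35 with NAD+, and its proliferating samples were at 0 apart from 0.03 in Ctrl replicate 3. The log2 fold change of 1.09 (SE 0.40) under differentiation conditions went to 0.23 with 1 added in place of 0.1 and to 1.92 with 0.01 added.

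Mt1 and Mt2 encode metallothioneins, small cysteine-rich proteins that bind zinc and copper, and they were the most abundant of the members in every group. Mt1 had 557.13, 587.17 and 532.19 FPKM in differentiation Ctrl and 602.44, 669.19 and 596.85 with NAD+. Mt2 had 580.68, 571.66 and 565.3 in Ctrl and 655.34, 667.42 and 641.9 with NAD+. Every NAD+ value of both genes exceeded every Ctrl value, by little, with means 1.11 and 1.14 times higher (log2 fold changes 0.16, SE 0.07, and 0.19, SE 0.04). In proliferating Ctrl, replicate 1 (637.37 FPKM for Mt1 and 583.35 for Mt2) lay far above replicates 2 and 3 (340.62 and 327.25 for Mt1, 302.87 and 263.17 for Mt2). With NAD+ the proliferating samples had 396.16, 312.77 and 310.5 FPKM for Mt1 and 289.29, 225.15 and 221.85 for Mt2, below replicate 1 of Ctrl.

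**Figure D2:**
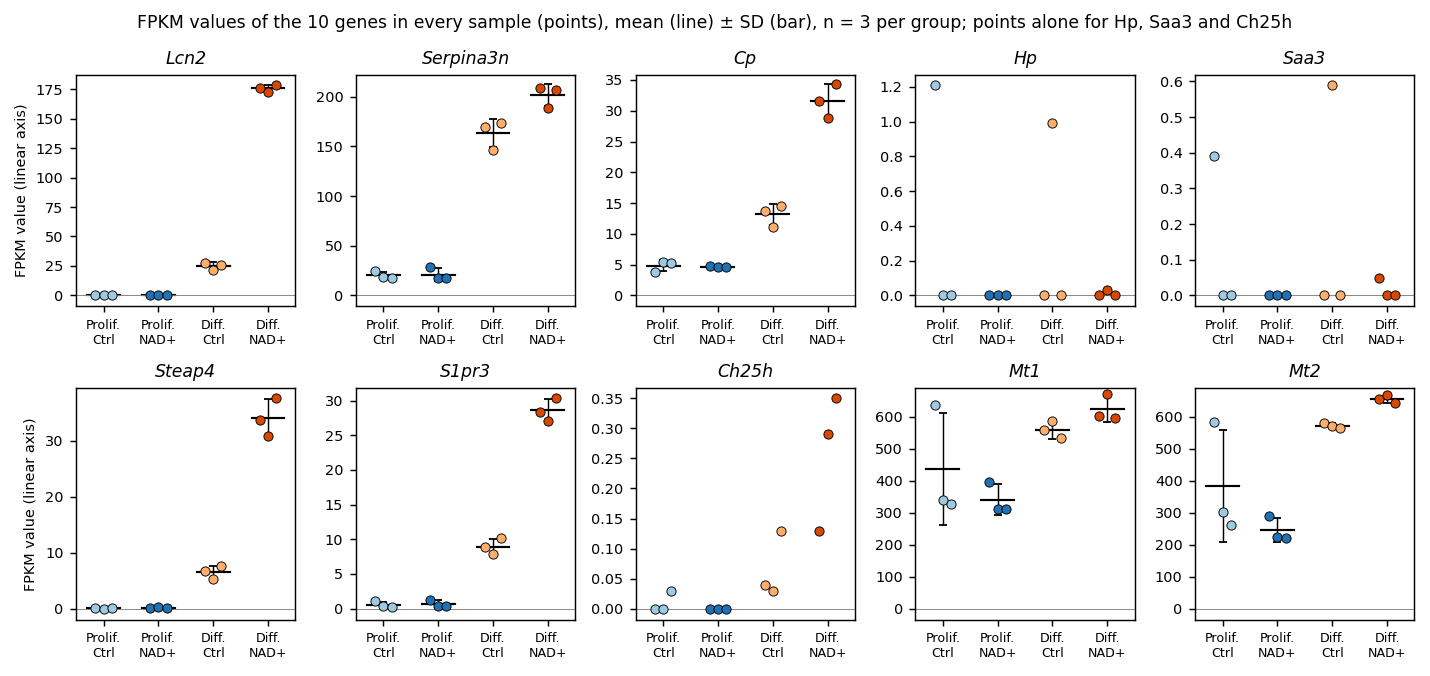
FPKM values (linear axes) of each of the 10 genes in every sample, 3 points per group, with the group mean as a line and the SD as a bar except for Hp, Saa3 and Ch25h, whose many values of 0 are shown as points alone. Lcn2, Steap4, S1pr3 and Cp separate differentiation NAD+ from all other groups, Serpina3n separates the conditions, and Mt1 and Mt2 stand above 200 FPKM in all 12 samples.

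Within differentiation Ctrl the order of the levels was Mt2 and Mt1, whose values overlapped, then Serpina3n, Lcn2, Cp, S1pr3 and Steap4, with Ch25h near 0. Means of neighbours in this order from Serpina3n (163 ± 14.4 FPKM, SD, n = 3) to Lcn2 (25.0 ± 3.03) and Cp (13.1 ± 1.73) differed by more than their SDs, and Cp did not overlap S1pr3 (8.93 ± 1.18). S1pr3 and Steap4 (6.49 ± 1.16) were the closest, the lowest S1pr3 value (7.81) standing just above the highest Steap4 value (7.56). With NAD+ the order was Mt2, Mt1, Serpina3n (202 ± 11.1), Lcn2 (176 ± 2.75), Steap4 (34.1 ± 3.42), Cp (31.6 ± 2.76) and S1pr3 (28.6 ± 1.63), where Mt2 overlapped with Mt1, and Steap4, Cp and S1pr3 with their neighbours. In both proliferating groups the order was Mt1, Mt2, Serpina3n, Cp and S1pr3, with the other members near 0. Mt1 and Mt2 overlapped in proliferating Ctrl and not with NAD+.

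The NAD+ values were higher than every Ctrl value under differentiation conditions for 7 of the 10 members, where 9.68% of all tested genes were higher in this way, and the median log2 fold change of the 10 was 0.70 against -0.08 over all genes. Of the 10, 4 (Lcn2, Steap4, S1pr3 and Cp) passed an adjusted p of 0.05 as higher with NAD+ under differentiation conditions, where 2.27% of the 19611 tested genes did, and nothing is read from these counts because the same comparison chose the members. Of all genes called there, 32.8% were higher, a share that was 53.5% with median-ratio scaling and 50.0% with quantile normalization. With median-ratio scaling, Mt1 and Mt2 differed by 0.24 and 0.28 on the log2 scale in place of 0.16 and 0.19.

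Marker levels moved along with this comparison. The 8 astrocyte markers summed to between 1644 and 1766 FPKM in differentiation Ctrl and between 1996 and 2108 with NAD+, all 8 being above 0 in every sample. The markers moved in both directions. Every NAD+ sample was above every Ctrl sample for 4 markers, namely Gfap (977 ± 18.8 against 595 ± 48.1 FPKM, SD, n = 3), Slc1a3 (means of 424 against 330), Slc1a2 (63.5 against 53.0) and S100b (107 against 94.8). Every NAD+ sample was below every Ctrl sample for 3, namely Aldoc (means of 260.5 against 333 FPKM), Aldh1l1 (61.3 against 93.5) and Aqp4 (27.8 against 34.8), and Gja1 overlapped (127 against 174). The 5 oligodendrocyte lineage markers, all above 0 in these samples, summed to between 208 and 222 FPKM in Ctrl and between 143 and 148 with NAD+. The part of these differences in the values of the members was not tested.

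The second question was whether the members also responded to NAD+ in proliferating cells, a comparison that did not choose them. None was called by the test, which does not show that they lack a response. Of the 7 members that passed the filter there (all except Lcn2, Saa3 and Ch25h), 0 had an adjusted p under 0.05 in limma, where 0.145% of the 18597 tested genes did, and 0 had an unadjusted p under 0.05, where 15.4% did. The median of the 7 was -0.03 on the log2 scale and that of all genes 0.07. The Ctrl and NAD+ samples overlapped for all 7, while 24.1% of the tested genes had groups without overlap. Among 7 genes, counts of 0 lie near these shares and do not set the members apart from other genes. Mt2 had -0.56 on the log2 scale (SE 0.30, limma adjusted p = 0.41) with all samples and -0.21 (limma adjusted p = 0.488) without proliferating Ctrl replicate 1. Mt1 had -0.29 (SE 0.27, limma adjusted p = 0.614), and 0.016 without that library. The log2 fold changes were 0.58 (SE 0.53) for Steap4, 0.36 (SE 0.58) for S1pr3, 0.04 (SE 0.23) for Serpina3n (-0.025 with median-ratio scaling) and -0.03 (SE 0.15) for Cp, each smaller than or close to its SE. Hp had -1.24 (SE 1.00), from the value of proliferating Ctrl replicate 1 alone, without which it was under the filter. Lcn2, Saa3 and Ch25h had at most 0.08, 0.39 and 0.03 FPKM in these 6 samples and were not tested.

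The ratio of Mt1 to Mt2 within a sample was higher in every proliferating NAD+ sample than in every proliferating Ctrl sample. A factor shared by all genes of a sample does not alter this ratio, whereas quantile normalization can. It was 1.09, 1.12 and 1.24 in Ctrl and 1.37, 1.39 and 1.40 with NAD+, a difference of 0.23 between means of 1.15 ± 0.0795 and 1.39 ± 0.0153 (SD, n = 3). An exact two-sided permutation test gave p = 0.1, the smallest that 3 samples against 3 allow. Any ratio whose groups do not overlap gives this value. The ratio was examined after the values were seen, so the test was fixed in advance and lends no support. Under differentiation conditions it was 0.959, 1.03 and 0.941 in Ctrl and 0.919, 1.00 and 0.93 with NAD+, where the groups overlapped.

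**Figure D3:**
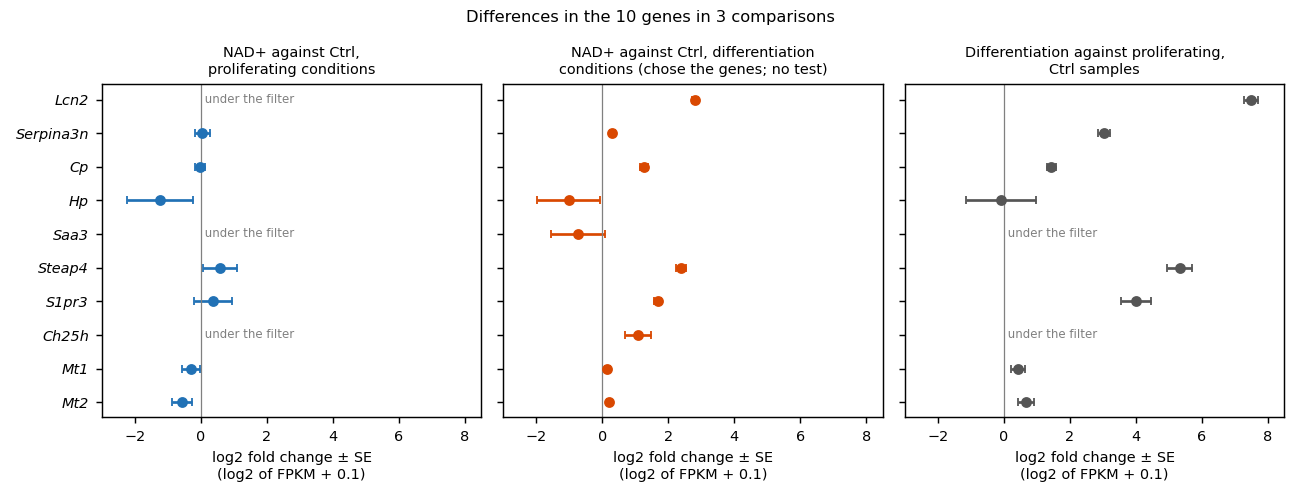
Log2 fold changes of the 10 genes (points) with their SE (bars) on the scale log2(FPKM + 0.1), for NAD+ against Ctrl under proliferating conditions, the same under differentiation conditions (the comparison that chose the genes, without a test) and differentiation against proliferating Ctrl samples. The proliferating values lie around 0 with wide bars, from -1.24 for Hp to 0.58 for Steap4, whereas differentiation against proliferating reaches 7.48 for Lcn2.

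The third question was how the members changed with differentiation itself, in cells without NAD+. The comparison of the 6 Ctrl samples was taken from a fit of all 12 samples. The values of the 2 conditions come from separate tables, so the culture condition and the table cannot be told apart. These Ctrl samples are the same ones that serve as controls in the NAD+ comparisons above. The differentiation Ctrl samples are thus part of the comparison that chose the members. The filter and the spread of the fit also use the NAD+ samples. For these reasons the p-values of members below are a description and no independent support. The median of all genes was at -0.06 and moved by 0.12 with median-ratio scaling, and changes are given relative to it. The SEs and limma p-values beside them belong to the log2 fold changes before this subtraction.

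Counts are given for genes that passed the filter in each condition on its own, a restriction chosen after seeing the data. Of the 7 members that did, 5 rose under differentiation conditions (limma adjusted p under 0.05), where 23.7% of 17558 such genes rose and 33.3% fell. Lcn2 passed only through its differentiation samples, so it is not among the 7 and its difference (0 to 0.08 FPKM against 21.65 to 27.59) is a description without a test. Steap4 is among the 7 and the 5, but passed the proliferating filter only with NAD+ replicate 2 (0.34 FPKM), a sample outside this comparison. Nothing is read from its call, and the other members called were S1pr3, Serpina3n, Cp and Mt2. Its proliferating Ctrl values were 0.15, 0 and 0.07 FPKM, so its difference is also given without a test. Relative to the median gene, Steap4 was higher by 5.39 on the log2 scale (SE 0.38), from a proliferating level close to the floor of the table. S1pr3 rose by 4.07 (SE 0.45, limma adjusted p = 1.92e-05). Serpina3n rose by 3.09 (SE 0.18, limma adjusted p = 2.28e-07), with a mean 8.16 times that of proliferating Ctrl, and Cp by 1.498 (SE 0.14, limma adjusted p = 6.34e-06), 2.73 times. For these 4 genes every differentiation Ctrl sample was above every proliferating Ctrl sample, which held for 26.4% of the 17558 genes.

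The metallothioneins differed less. Mt2 rose by 0.73 relative to the median gene (SE 0.23, limma adjusted p = 0.03) and Mt1 had 0.49 (SE 0.21, limma adjusted p = 0.107). Both overlapped between the conditions because of proliferating Ctrl replicate 1. Without that library their log2 fold changes, before subtracting the median, were 1.02 and 0.74 (limma adjusted p = 3.49e-05 and 0.000254), and without both libraries with liver transcripts, an alternative chosen after seeing the data, 1.02 and 0.71 (limma adjusted p = 0.000209 and 0.0013). The call of Mt2 was lost without either of the other proliferating Ctrl samples or without any of the differentiation Ctrl samples, with limma adjusted p from 0.063 to 0.122. Hp showed no difference beyond its spread (-0.09, SE 1.05, before subtracting the median), and its values rest on 1 library in each condition.

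In the NAD+ samples, the differentiation mean was 9.62 times the proliferating mean for Serpina3n, 6.81 times for Cp, 2.67 times for Mt2 and 1.83 times for Mt1. These values share their samples with the NAD+ comparisons and were not tested.

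The genes around the members were taken from lists of pathway genes, 127 genes that are no members, with 77 of them above the filter in proliferating cells and 95 in differentiating cells. With NAD+, 0 of the 77 passed an adjusted p of 0.05 in limma under proliferating conditions, where 0.145% of all tested genes did. An unadjusted p under 0.05 was reached there by 22 of the 77 and by 15.4% of all tested genes. Under differentiation conditions 16 rose and 3 fell, 16.8% and 3.16% of the 95, where 2.27% and 4.65% of all tested genes did. The lists were chosen with earlier results of these data known, so these shares are a description and no independent support. Their median log2 fold change was 0.14 under differentiation conditions, against -0.08 over all genes, and 0.05 against 0.07 under proliferating conditions. Differentiation against proliferating Ctrl samples gave 46 that rose and 10 that fell among the 77 that passed the filter in each condition on its own, where 23.7% and 33.3% of all such genes did. The NAD+ effect itself differed between the conditions for 3 of the pathway genes named here (C3, Cxcl10 and H2-D1) and for 0.467% of all genes tested.

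Upstream of the members, 3 of 12 tested genes of cytokine ligands and receptors rose with NAD+ under differentiation conditions and 0 fell. The 3 were Il6ra, Osmr and Il6st. Il6ra, the interleukin-6 receptor chain, rose from 1.18 ± 0.0493 to 3.28 ± 0.912 FPKM (SD, n = 3; log2 fold change 1.36, limma adjusted p = 0.018). Osmr, the oncostatin M receptor, rose from 2.57 ± 0.187 to 5.16 ± 0.463 (log2 fold change 0.98, limma adjusted p = 0.00674), and Il6st, the shared signalling chain gp130, from 42.5 ± 1.45 to 71.8 ± 5.57 (log2 fold change 0.75, limma adjusted p = 0.00494). Other receptor genes of the same family, named after their values were seen, did not pass the test. Cntfr had -0.36 (limma adjusted p = 0.0906) and Lifr had -0.14 (limma adjusted p = 0.19), both lower in every NAD+ sample, and Il11ra1 had -0.03 (limma adjusted p = 0.83). The ligand gene Il6 itself was listed at 0 in 10 of the 12 samples and had at most 0.06 FPKM. The median of the 12 genes was 0.05. The call of Il6ra was lost without any of the Ctrl samples and without NAD+ replicate 2, with limma adjusted p from 0.0576 to 0.07. Under proliferating conditions Il6ra had 0.12, 0.1 and 0.15 FPKM in Ctrl and 0.49, 0.48 and 0.39 with NAD+, groups that did not overlap (log2 fold change 1.31, SE 0.25, limma adjusted p = 0.11).

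Among 15 transcription factors and feedback genes of the acute phase, 1 rose and 0 fell, with a median of 0.22. The gene that rose was Cebpd, an acute-phase C/EBP factor, with 7.78, 8.53 and 7.55 FPKM in Ctrl and 13.42, 13.74 and 14.43 with NAD+ (log2 fold change 0.80, SE 0.07, limma adjusted p = 0.00494). Stat3 had 0.29 (SE 0.08, limma adjusted p = 0.0953), and Cebpb had 0.41 (SE 0.22, limma adjusted p = 0.318). The feedback inhibitors Socs3 and Nfkbia had 0.30 (SE 0.15, limma adjusted p = 0.303) and 0.19 (SE 0.07, limma adjusted p = 0.171). In differentiation against proliferating Ctrl samples, 11 of the 14 that passed the filter in each condition on its own rose and 0 fell, where 23.7% of all such genes rose.

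Other genes of reactive astrocytes were counted in the same way. Of 8 genes that mark reactive astrocytes of any kind, 5 rose with NAD+ under differentiation conditions and 0 fell, with a median of 0.74. They included Cxcl10, a chemokine (log2 fold change 1.80, limma adjusted p = 0.000572), Timp1, an inhibitor of metalloproteinases (0.92, limma adjusted p = 0.0108), Osmr and Gfap (0.72, limma adjusted p = 0.00613). Of 13 genes of the A1 list, named for astrocytes activated by microglial cytokines, 4 rose and 0 fell, with a median of 0.42. C3, the central complement component, had 90.91, 81 and 83.73 FPKM in Ctrl and 435.63, 428.97 and 425.08 with NAD+ (log2 fold change 2.34, SE 0.05, limma adjusted p = 6.47e-05). The others named by the rule were the guanylate-binding protein gene Gbp2 (1.29, limma adjusted p = 0.00361) and H2-D1, an MHC class I gene (1.13, limma adjusted p = 0.00103). Of 12 genes of the A2 list, named for astrocytes after ischemia, Tm4sf1 (0.99, limma adjusted p = 0.0428) and Cd109 (0.58, limma adjusted p = 0.0186) rose and 0 fell, with a median of 0.18. The call of Tm4sf1 was lost without any of the 6 samples (limma adjusted p from 0.0672 to 0.116), that of Cd109 without any Ctrl sample or NAD+ replicate 2 (0.0546 to 0.0734) and that of Timp1 without Ctrl replicate 1 (0.0513).

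The other lists held few calls. Of 22 other acute-phase proteins of the liver, 7 were tested under differentiation conditions and 0 passed an adjusted p of 0.05 in limma (3 had an unadjusted p under 0.05, as did 24.2% of all tested genes), with a median of 0.51. The only member of that list above 20 FPKM in every sample was A2m, with 25.4 ± 4.44 FPKM in Ctrl and 42.2 ± 7.72 with NAD+ (SD, n = 3). In the libraries with liver transcripts, 18 and 19 of the 22 genes were above 0, against 4 to 9 in the other samples. Of the Serpina3 paralogs, 0 of 3 tested passed by limma (0 unadjusted), with a median of -0.20.

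Among genes of iron and copper handling, 2 of 13 tested rose and 1 fell, with a median of -0.02. The ferritin chains Ftl1 (log2 fold change 0.40, limma adjusted p = 0.0426) and Fth1 (0.33, limma adjusted p = 0.00992) rose, and Tfrc, the transferrin receptor, fell by 0.45 (limma adjusted p = 0.00969). The call of Ftl1 was lost without any of the 6 samples (limma adjusted p from 0.0501 to 0.139) and that of Fth1 without Ctrl replicate 1 (0.0517). Of 4 tested relatives and regulators of metallothioneins, Slc39a10, a zinc importer, fell by 0.49 (limma adjusted p = 0.00504) and 0 rose, with a median of 0.15. Mt3, the brain metallothionein next to Mt2, had 0.14 on the log2 scale (limma adjusted p = 0.189) under differentiation conditions and -0.45 (limma adjusted p = 0.296) under proliferating conditions, where replicate 1 of Ctrl (403.17 FPKM) was again the highest. Of 7 tested genes of sphingosine-1-phosphate signalling, 0 passed by limma (4 had an unadjusted p under 0.05, as did 24.2% of all tested genes), with a median of 0.07. Of 4 tested oxysterol genes, Cyp7b1, which degrades 25-hydroxycholesterol, fell by 0.40 (limma adjusted p = 0.0219) and 0 rose, with a median of -0.12. That call was lost without any Ctrl sample or NAD+ replicate 2 or 3 (limma adjusted p from 0.0611 to 0.0846).

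**Figure D4:**
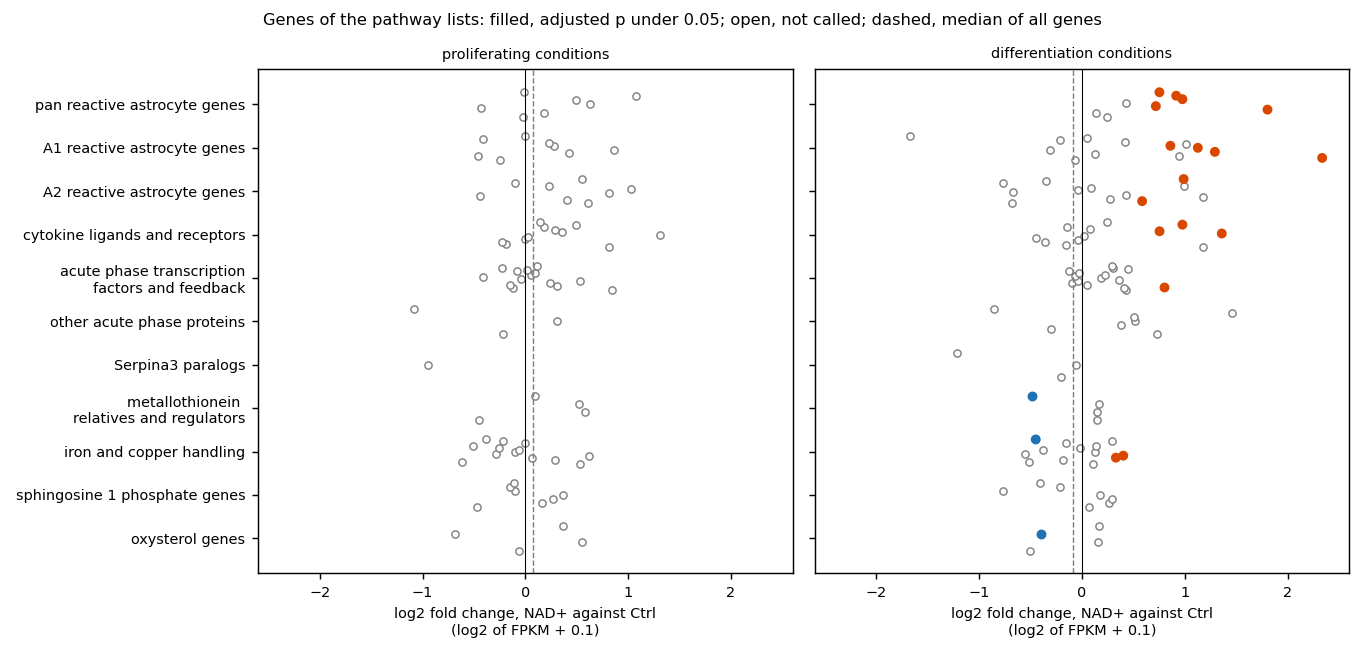
Log2 fold changes of NAD+ against Ctrl, on log2(FPKM + 0.1), for the tested genes of each pathway list (1 point per gene) under proliferating conditions (left) and differentiation conditions (right). Filled points had an adjusted p under 0.05 (0 on the left, 16 genes higher and 3 lower on the right, with Osmr drawn in 2 lists), and the dashed lines mark the medians of all genes, 0.07 and -0.08.

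Across the 12 samples, the genes most like the members were found by Pearson's r with the mean standardized log2 profile of the 7 members that passed the filter in both conditions. Of 12928 genes with a mean of at least 1 FPKM, the 5 nearest non-members were mt-Nd4 (r = 0.987), Gpx4 (0.984), Gjb2 (0.984), Lgmn (0.984) and Btd (0.983). The mean profile lay between -1.03 and 0.09 in the 6 proliferating samples and between 0.464 and 0.953 in the 6 differentiation samples, so the points share the contrast of the conditions. Each of the 5 genes was higher in all differentiation samples than in all proliferating samples, for example Gpx4 with 118 to 153 against 75.6 to 110 FPKM and Gjb2 with 3.23 to 5.00 against 0.25 to 1.16. The order depends on Hp and on the libraries with liver transcripts. Without Hp, an alternative chosen after seeing the data, the 5 nearest were Chil1 (r = 0.993), mt-Nd4 (0.993), Gbp6 (0.992), Rhou (0.9901) and Itm2b (0.9901). Without Hp and without both of those libraries, over the other 10 samples, they were Farp1 (r = 0.999), Arfgef2 (0.998), Slc38a1 (0.997), Osmr (0.997) and Pcsk6 (0.997), and the 5 genes named first stood at places 22 to 173.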

How the data were processed

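RNA-seq was performed on 12 samples. The authors aligned the reads with Hisat2 (v2.0.5; mm10), counted uniquely mapped reads with FeatureCounts v2.0.1 and deposited FPKM values, rounded to 0.01, in a table for each condition. How FPKM was computed is not given in the sources used here. The tables also hold the authors' own NAD+ against Ctrl comparison (fold change, its log2, p-value and q-value), which was not used. Here limma 3.58.1 (R 4.3.3) was applied to log2(FPKM + 0.1) (trended moderated variance, two-sided, Benjamini-Hochberg adjustment over all tested genes), restricted to genes whose FPKM averaged 0.1 or more in the samples used, 6 for NAD+ against Ctrl in a condition and 12 for differentiation against proliferating conditions. The difference of the NAD+ effect between conditions was tested in the 12-sample fit for pathway genes only. The depth is unknown, so no counting error is given. The members and lists were chosen with earlier results of these data known, and some genes stand in more than 1 list. Named genes were all members, up to 3 called genes per pathway list with the largest change and a mean FPKM of at least 1, the genes Stat3, Socs3, Cebpb, Cebpd, Nfkbia, Il6, Mt3, C3 and Gfap, and the 5 nearest profiles. Alternatives were other pseudocounts, filters and scalings, no variance trend, the replicate block, an unadjusted p with a 2-fold rule and leaving out each sample. Chosen after seeing the data were leaving out both libraries with liver transcripts, nearest profiles without Hp, and counts over genes that passed the filter in both conditions. Code was tested on simulated data. Tables and figures were made in Python 3.11.15 (matplotlib 3.10.9, scipy 1.17.1, pandas 2.3.3, numpy 2.4.6).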

Additional observations from a re-analysis of the deposited data

Results flagged for a closer look

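For 3 pathway genes named by the rule, the NAD+ effect differed between the conditions by the interaction term of the 12-sample limma fit, which was not applied to the members because the differentiation comparison chose them. That term also contains the comparison whose calls named these 3 genes, and the lists were chosen with earlier results known. Its p-values are therefore a description and no independent support. The NAD+ effect under differentiation conditions minus that under proliferating conditions was 2.79 on the log2 scale for C3 (SE 0.49, limma adjusted p = 0.0413), 1.62 for Cxcl10 (SE 0.23, limma adjusted p = 0.0197) and 0.90 for H2-D1 (SE 0.12, limma adjusted p = 0.0177). The median of all genes for this difference was -0.16 and moved by 0.14 with median-ratio scaling, and relative to it the differences were 2.95, 1.78 and 1.05. C3 and Cxcl10 were under 0.4 FPKM in all 6 proliferating samples, where the added 0.1 bears on the value, while H2-D1 had 14.6 ± 1.66 FPKM in Ctrl and 17.1 ± 1.22 with NAD+ (SD, n = 3). The call of C3 was also lost with 0.01 added, without a filter, with quantile normalization, without the variance trend and with the replicate block (limma adjusted p = 0.124, 0.0629, 0.0661, 0.0651 and 0.0853), and that of Cxcl10 with 0.01 added and with the replicate block (0.065 and 0.0554). Leaving out 1 library ended the call of C3 for 10 of the 12 samples (limma adjusted p from 0.052 to 0.108), that of Cxcl10 for 6 (0.0535 to 0.0641) and that of H2-D1 for 4 (0.0535 to 0.0641). Leaving out both libraries with liver transcripts, an alternative chosen after seeing the data, left all 3 under an adjusted p of 0.05 in limma (0.0292, 0.0285 and 0.0239). The cause of these differences was not tested.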

How the results depend on the processing

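The number of members called under proliferating conditions was 0 in every alternative, and that under differentiation conditions was 4 to 6. In differentiation against proliferating Ctrl samples it was 5 to 7, and leaving out 1 library gave 0, 4 and 5 to 7. The main value of 6 for differentiation against proliferating Ctrl samples included Lcn2, which passed that filter only through the differentiation samples. It also included Steap4, whose difference is given without a test. In the main fits, 0.145% of tested genes were called under proliferating conditions and 2.27% were called higher under differentiation conditions. For differentiation against proliferating Ctrl samples, 4884 of 19498 tested genes were called higher. The 6 members under differentiation conditions came with median-ratio scaling, where 613 of 19578 genes were called higher. Nothing is read from the counts under differentiation conditions, because that comparison chose the members. The pathway genes whose NAD+ effect differed between conditions numbered 3, and 1 with 0.01 added or with the replicate block, and 0 to 4 when 1 library was left out. Over all genes, the calls under proliferating conditions (27) numbered 9 without a filter, 75 with a minimum mean FPKM of 1, 60 with quantile normalization, 0 without the variance trend, 0 with the replicate block, 559 by the unadjusted p and 2-fold rule, and 0 to 36 when 1 library was left out (0 without Ctrl replicate 3 or NAD+ replicate 1 or 2, 1 without Ctrl replicate 2 and 2 without NAD+ replicate 3). Under differentiation conditions the calls (1357) numbered 619 without the variance trend, 758 with the replicate block, 795 by the 2-fold rule, and 328 to 719 when 1 library was left out, whichever it was, with the lowest number without Ctrl replicate 1. In differentiation against proliferating Ctrl samples the 2-fold rule gave 6058 calls in place of 11048, and leaving out 1 library gave 9946 to 11080. The share of higher calls under proliferating conditions was 33.3%, against 21.2% with median-ratio scaling and 26.7% with quantile normalization. The causes were not tested.

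Serpina3n under proliferating conditions turned to -0.025 with median-ratio scaling, and its values without 1 library ran from -0.19 to 0.19. Without 1 library the values there ran from -0.19 to 0.047 for Cp, from -0.46 to 0.016 for Mt1 and from -0.11 to 0.89 for S1pr3, and those of Hp in differentiation against proliferating Ctrl samples from -1.24 to 0.49, all without a call. The deviations of same-numbered Ctrl and NAD+ samples from their group means correlated at r = 0.111, 0.0215 and 0.0529 under proliferating conditions and at 0.041, 0.0432 and 0.0257 under differentiation conditions, so the numbers were not taken to pair the samples. With the replicate block the members called were 0, 5 and 6, where 0 of 18597, 758 of 19611 and 10903 of 19498 tested genes were called.

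FPKM values hold no depth, so a value of 0 sets no limit, and members under 0.1 FPKM could not be compared.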
